A study of Caenorhabditis elegans with 2 samples.

Results

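The genes described here are 6 regulators of the seam cells of Caenorhabditis elegans: egl-18, elt-6, ceh-16, rnt-1, bro-1 and lin-22. They were listed by name, out of 19985 annotated protein-coding genes, and all 6 were found in the annotation. For each gene, the ELT-1 peaks with a summit between 8 kb upstream of its 5′ end and 8 kb past its 3′ end were taken. The peaks came from ChIP-seq of ELT-1 carrying a C-terminal GFP-FLAG tag, in 2 biological replicates of hermaphrodite embryos of mixed stages. Both replicates were of strain OP354 (unc-119(tm4063) III; wgIs354), which carries the tagged elt-1 as a transgene, and the samples analysed here were of no other genotype or treatment. The age of the embryos is given as unknown, the antibody field names elt-1 while the descriptions name an antibody to GFP, and the sources used here do not give the promoter of the transgene. Whole embryos were used, so a peak cannot be assigned to seam cells or to any other cell type.

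Seam cells are epidermal cells in a row along each side of the worm. They divide in a stem cell-like manner through larval life, giving rise to epidermal nuclei and to some neurons while renewing themselves. ELT-1, a GATA-type zinc finger factor, acts early in the embryo to specify the epidermis, seam cells included, and GATA factors bind DNA at a GATA core. egl-18 and elt-6 encode further GATA factors, which act together to hold the seam fate. ceh-16 encodes a homeodomain protein of the engrailed family that seam cells need to form and to stay unfused. rnt-1 encodes the worm's RUNX factor and bro-1 its CBFβ partner, and this pair promotes the proliferative seam divisions. lin-22 encodes a bHLH protein related to the Hairy and Enhancer of split factors, which keeps most anterior seam cells from making neuronal descendants.

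All 6 genes had at least 1 peak of the main list within 8 kb, against 19.5% of all protein-coding genes (3905 of 19985). The 6 genes were chosen with earlier results of these data known, so this and the later gene counts are not independent of the data. The submitters thresholded the main list by the irreproducible discovery rate (IDR). Longer relaxed lists, of each replicate and of both pooled, also hold weak peaks and background. The lowest signal in the main list, which the submitters call optimal, was 27.8227. The highest pooled relaxed signal that overlapped no peak of the main list was 27.8202. By these values the main list is close to a cut of the pooled list by signal. Membership alone therefore does not show that a peak was strong in both replicates, and a peak below IDR need not have failed to replicate. The IDR peaks of the 6 genes were 9 summits in 8 intervals, and 3 of the 9 lay in the windows of both egl-18 and elt-6, which are neighbours. The 6 genes are therefore 5 separate loci. Long genes have wide windows: of all genes 10 kb or longer, among which are egl-18 and rnt-1, 27.8% had an IDR summit within 8 kb. A promoter window was set at 1000 bp before to 200 bp after each annotated 5′ end. It held an IDR summit for none of the 6, where 3.61% of all protein-coding genes had one. Summits inside the gene itself were found for 3 of the 6 (egl-18, rnt-1 and bro-1), against 2.35% of all genes. That share covers genes of every length, and a longer gene has more room for a summit. egl-18 is 15519 bp long, rnt-1 12519 bp and bro-1 2315 bp, and no gene-body share for long genes alone is given here. With 1 group of samples and no second condition, positions and ranks are given as a description, without tests.

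**Figure D1:**
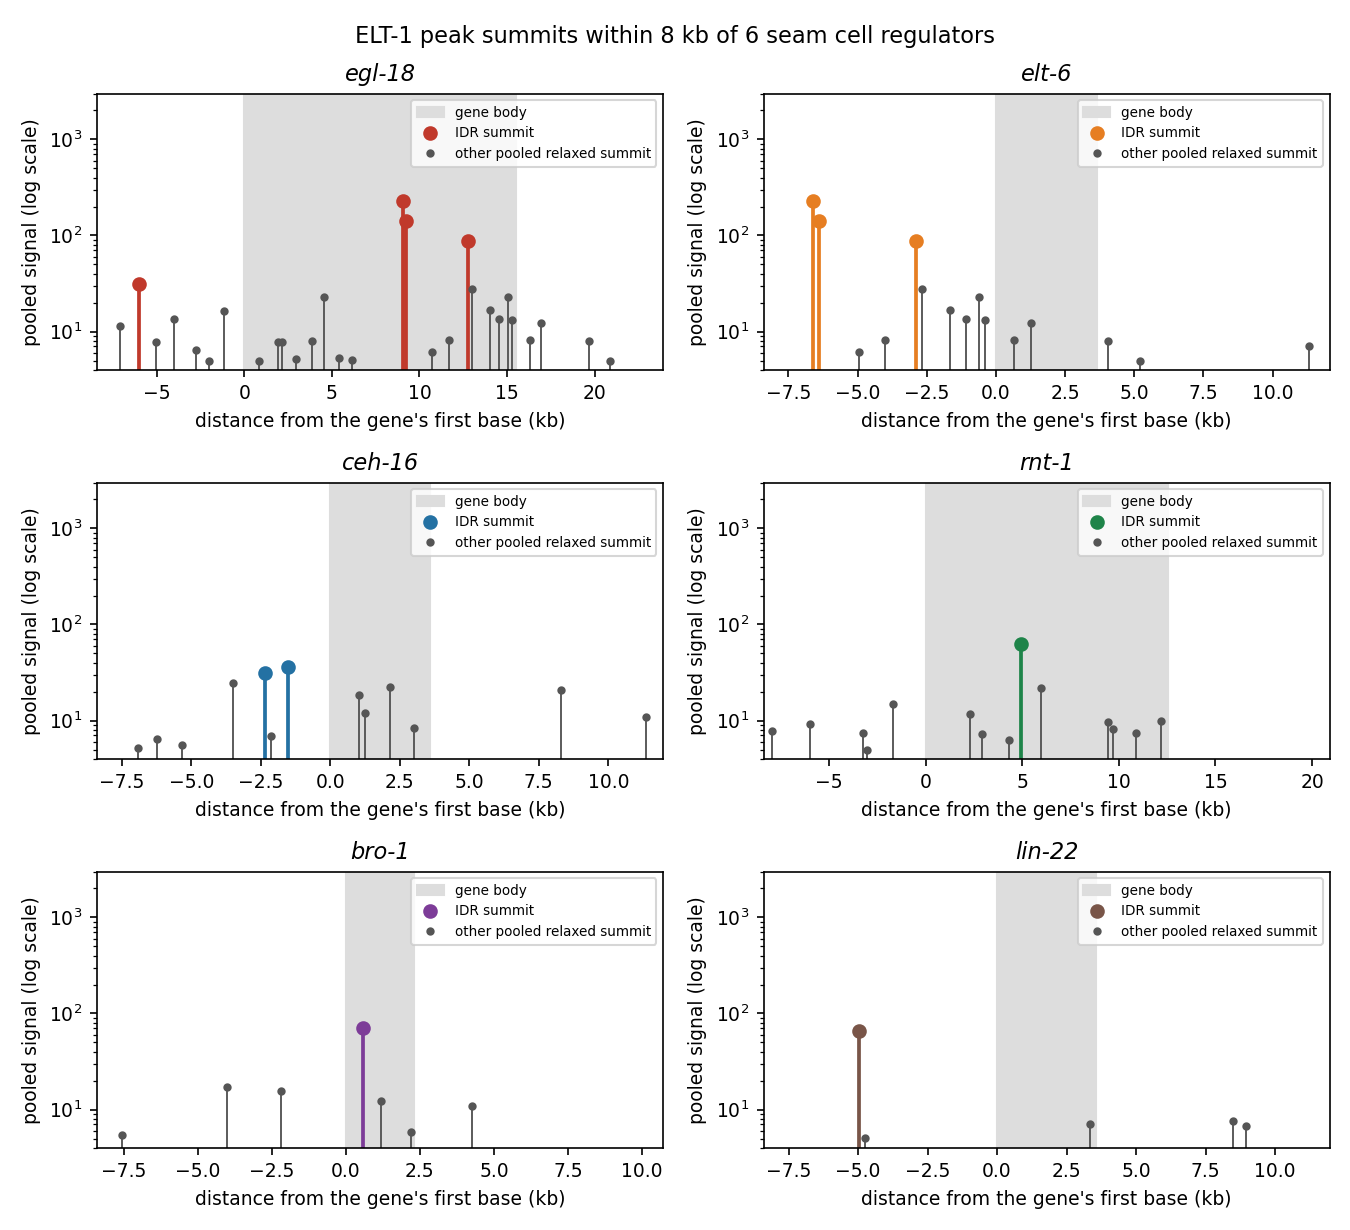
Peak summits in the window of each of the 6 genes, by distance from the gene's first base in kb (x axis, all genes read left to right) and pooled signal (y axis, log scale). Coloured lines are IDR summits, dark grey lines are the other summits of the pooled relaxed list, and the grey block is the gene. The 3 tall summits of the egl-18 panel (227, 143 and 87.0) are those upstream of elt-6 in the next panel.

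The egl-18 and elt-6 locus held the strongest of these peaks. The genes lie in the same orientation on chromosome IV, egl-18 from 1902322 to 1917840 and elt-6 from 1917977 to 1921643 (build ce11), with 136 bp between them. The strongest summit had a signal of 227, a deposited value on no stated scale. It ranked 11 of the 1400 IDR peaks and 5 among the 1377 on nuclear chromosomes. It lay at 1911381, in the first intron, 11092 bp long, of the longest egl-18 transcript and 2065 bp upstream of the nearest annotated 5′ end of egl-18, which is that of a shorter transcript. The second summit, at 1911584 with a signal of 143 (rank 31), lay 203 bp away in the same interval (1911221 to 1911673). The third, at 1915105 with a signal of 87.0 (rank 118; 1915003 to 1915149), lay in an intron of 2193 bp that all 3 egl-18 transcripts share, 175 bp past the end of an exon. The fourth, at 1896335 with a signal of 30.9 (rank 1168), was intergenic, 5987 bp upstream of the gene. From the start of elt-6 the first 3 summits lay 6596, 6393 and 2872 bp upstream, all inside egl-18, and the elt-6 gene body held no IDR summit.

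The sequences at the 3 strong egl-18 summits are shown to set out which GATA sites lie there. They are the plus strand of WBcel235 (the ce11 assembly, from RefSeq), from 100 bp before to 100 bp after summits 1 and 3 (chrIV:1911281-1911481 and chrIV:1915005-1915205) and 50 bp to each side of summit 2 (chrIV:1911534-1911634). Capitals mark, on either strand, AGATAA or AGATAG and TGATAA or TGATAG, called GATA sites here, and the C forms CGATAA or CGATAG. A site on the minus strand is printed as its reverse complement, so that AGATAG there reads CTATCT.
egl-18 summit 1: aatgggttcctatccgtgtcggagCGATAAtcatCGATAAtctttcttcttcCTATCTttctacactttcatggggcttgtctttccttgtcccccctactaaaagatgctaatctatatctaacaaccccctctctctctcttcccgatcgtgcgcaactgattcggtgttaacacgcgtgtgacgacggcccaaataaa
egl-18 summit 2: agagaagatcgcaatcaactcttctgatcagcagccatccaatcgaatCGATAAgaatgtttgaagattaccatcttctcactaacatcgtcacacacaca
egl-18 summit 3: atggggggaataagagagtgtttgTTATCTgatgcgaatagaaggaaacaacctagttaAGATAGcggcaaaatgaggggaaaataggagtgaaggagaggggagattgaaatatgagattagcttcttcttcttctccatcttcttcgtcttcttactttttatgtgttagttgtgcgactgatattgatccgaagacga

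The strongest egl-18 summit had 1 GATA site within 100 bp, AGATAG, starting 48 bp to its left on the minus strand, and 2 copies of CGATAA, starting 76 and 66 bp to its left (offsets are those of the leftmost base). The second summit had no GATA site within 100 bp, but a CGATAA that starts 2 bp to its left and so spans it. Summit 3 had AGATAA and another site, AGATAG, starting 76 and 41 bp to its left. The fourth had a CGATAA starting 82 bp to its right and no GATA site within 100 bp. GAGAGA lay within 100 bp of summits 1, 2 and 4. These matches are descriptions of the letters and do not show which factor binds, and EGL-18 and ELT-6 are GATA factors themselves.

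The 2 replicates were close in rank at the strongest egl-18 summit and less so at the second. Each replicate had its own relaxed list, which holds background by design, 30000 peaks for replicate 1 and 26001 for replicate 2, and signals have no common scale between the lists. The first summit had a signal of 145 in replicate 1 (rank 15) and 82.8 in replicate 2 (rank 11). The second had 51.8 in replicate 1 (rank 153) and 14.7 in replicate 2 (rank 713). The third had 38.9 in replicate 1 (rank 295) and 37.4 in replicate 2 (rank 89). All 3 were thus among the 1400 strongest peaks of each replicate. The fourth, upstream summit was in neither set, with 16.3 in replicate 1 (rank 1795) and 8.42 in replicate 2 (rank 2284).

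In the pooled relaxed list, which includes the IDR summits, egl-18 had the densest window of the 6. The pooled relaxed list had 29 summits in the 31519 bp around egl-18 (0.920 per kb), and 43 of 19985 protein-coding genes had as high a density or higher, egl-18 included. The median over all genes was 0.284 per kb. elt-6 had 15 (0.763 per kb, reached by 1.11% of genes), many of them the same. Of the 25 egl-18 summits below IDR, 19 overlapped a relaxed peak of replicate 1, 12 one of replicate 2 and 10 both. No such share over all pooled relaxed summits is given here, so these counts are not read as replicate support. The strongest of them, at 1915310, had a pooled signal of 27.7, just outside the lowest IDR signal of 27.8. It lay in the same intron as summit 3, with an interval that overlapped the edge of that peak, and held 2 GATA sites. The next, at 1906893 (23.2), lay in the long first intron with 3 GATA sites. Another, at 1917368 (22.9), lay in the last exon of egl-18, 609 bp upstream of the start of elt-6, with ranks of 6235 in replicate 1 and 5225 in replicate 2.

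ceh-16, on chromosome III from 8622735 to 8626314, had 2 IDR summits, both intergenic and upstream, and both weaker than the median IDR peak (39.4). The nearer, at 8621196 (interval 8621021 to 8621370), lay 1539 bp upstream with a signal of 36.1 (rank 862 of 1400). The other, at 8620378 (8620203 to 8620552), lay 2357 bp upstream with a signal of 31.3 (rank 1127), 818 bp from the first and 1916 bp from the 5′ end of C13G5.2, which is closer to it than ceh-16. Replicate 1 had signals of 27.0 (rank 669) and 22.98 (rank 947) there. Replicate 2 had 7.86 (rank 2672) and 4.20 (rank 10082). Both summits were thus among the 1400 strongest peaks of replicate 1, and neither was among those of replicate 2.

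Neither ceh-16 summit had a GATA site or a C form of it within 100 bp. The sequence 50 bp to each side of the stronger summit (chrIII:8621146-8621246, plus strand) is shown for contrast with egl-18. No letters are in capitals, since none of the 6 forms occurs.
ceh-16 summit 1: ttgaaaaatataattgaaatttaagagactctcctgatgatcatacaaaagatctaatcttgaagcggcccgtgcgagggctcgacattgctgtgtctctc

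A TGATAG on the minus strand lay farther out, starting 126 bp to the left of that summit. Within 100 bp of the summit there was no GATA at all, and within 100 bp of the weaker one there were 2 GATA cores outside the 6 forms. Among the ceh-16 summits below IDR, the one at 8624874 lay in an intron of ceh-16, 1994 bp downstream of its nearest 5′ end, with a pooled signal of 22.6 (rank 1991). It ranked 2640 in replicate 1 and 318 in replicate 2, so that it stood higher in replicate 2 than either IDR summit did. It had 1 GATA site.

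lin-22, on chromosome IV from 3019738 to 3023304, had 1 IDR summit, at 3014773 (3014598 to 3014947), 4965 bp upstream, with a signal of 66.1 (rank 220). The annotation places a 268 bp non-coding RNA gene, Y54G2A.67, over this summit (3014674 to 3014941, minus strand). The nearest 5′ end of a protein-coding gene was that of vrp-1, 2165 bp away, so proximity alone would not assign the peak to lin-22. The replicates differed here more than at any of the other 8 summits. Replicate 1 had a signal of 54.5 (rank 135) with a summit 80 bp away. In replicate 2 the overlapping peak had a signal of 2.60 (rank 20251 of 26001) and a summit 234 bp away. Of the 1400 IDR peaks, 32 had a replicate 2 peak of that rank or lower, or none. The lin-22 window was also the sparsest of the 6, with 5 pooled relaxed summits (0.256 per kb), and the highest of those below IDR reached 7.54.

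The lin-22 summit had the most GATA sites of the 9, and the 100 bp to each side of it (chrIV:3014673-3014873, plus strand) are shown for that reason. All 3 sites, in capitals, are on the minus strand: TGATAG starting 98 bp to the left of the summit, AGATAA 23 bp and AGATAG 60 bp to its right.
lin-22 summit 1: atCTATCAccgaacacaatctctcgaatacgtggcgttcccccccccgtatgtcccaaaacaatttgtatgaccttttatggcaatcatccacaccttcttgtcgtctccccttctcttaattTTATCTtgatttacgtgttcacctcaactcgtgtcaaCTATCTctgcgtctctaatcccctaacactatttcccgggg

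CGTCTC, a sequence without GATA that was found at 19.2% of all IDR summits, occurred here at 2 places, starting 3 and 69 bp to the right of the summit. It occurred at none of the other 8 summits.

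rnt-1 and bro-1, whose products form a complex, each had 1 IDR summit, and both summits were in introns of the gene itself. rnt-1 (chromosome I, 5776093 to 5788611) had its summit at 5781010 (5780835 to 5781184), with a signal of 62.1 (rank 254). The intron is 7206 bp long in the 2 longer transcripts, and the summit lay 2801 bp upstream of the start of the short transcript. bro-1 (chromosome I, 5186926 to 5189240) had its summit at 5187508 (5187490 to 5187577), with a signal of 71.4 (rank 185), in a first intron of 432 bp, 582 bp downstream of the 5′ end. This was the nearest of the 9 summits to an annotated start.

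Both peaks were among the 1400 strongest of each replicate and ranked higher in replicate 2. At rnt-1 the signal was 28.6 in replicate 1 (rank 591) and 29.5 in replicate 2 (rank 156). At bro-1 it was 30.9 in replicate 1 (rank 504) and 39.2 in replicate 2 (rank 76). Each had 1 GATA site within 100 bp, AGATAA at rnt-1 and TGATAA at bro-1, starting 65 bp to the right and 45 bp to the left. The bro-1 site, at 5187463 to 5187468, lay outside the peak interval, which is 88 bp wide. rnt-1 also had 11 overlapping matches of GAGAGA beside its summit, and the summit lay within a 149 bp non-coding RNA gene, B0414.11. A second rnt-1 summit below IDR, at 5782078 in the same intron, had a pooled signal of 21.9 and ranked 934 in replicate 1 and 11720 in replicate 2. The window of rnt-1 held 14 pooled relaxed summits (0.491 per kb, reached by 14.0% of genes) and that of bro-1 held 7 (0.382 per kb, reached by 30.1%).

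**Figure D2:**
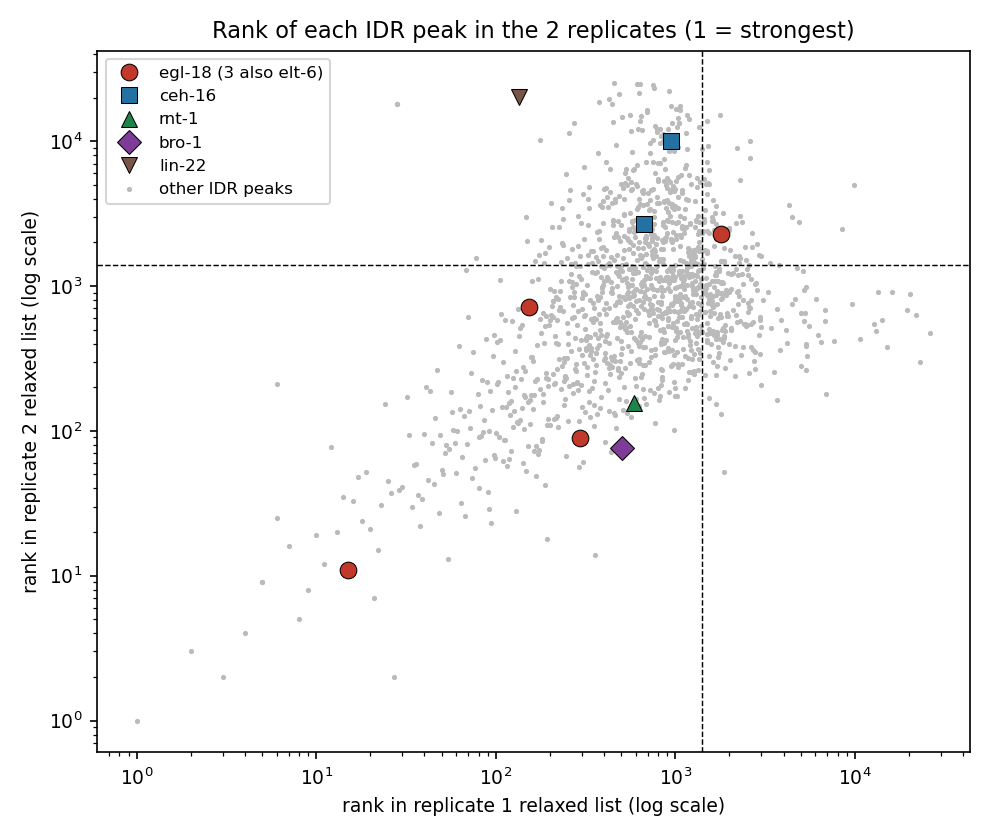
Rank of each IDR peak in the relaxed list of replicate 1 (x axis) and of replicate 2 (y axis), both on log scales with 1 the strongest, for the peaks at seam cell regulators (coloured) and the other IDR peaks that overlapped relaxed peaks of both (grey). Dashed lines mark rank 1400. The strongest egl-18 peak is at ranks 15 and 11, and lin-22 is at ranks 135 and 20251.

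Across the 9 summits, each had an overlapping relaxed peak in both replicates, as nearly all IDR peaks did. Of the 1400 IDR peaks, 23 had none in replicate 2 and 2 had none in replicate 1. By the stricter measure, 5 of the 9 were among the 1400 strongest of both replicates, against 55.4% of all IDR peaks. For replicate 1 the count was 8 of 9, against 81.8% of all IDR peaks, and for replicate 2 it was 5 of 9, against 68.6%. The 4 that missed the replicate 2 set were both ceh-16 summits, lin-22 and the upstream egl-18 summit. Genes with at least 1 IDR peak that was strong in both replicates within 8 kb were 4 of the 6 (egl-18, elt-6, rnt-1 and bro-1), against 11.4% of all protein-coding genes.

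The summits were mostly far from annotated starts. Of the 9, 8 lay over 1000 bp from the nearest 5′ end of any protein-coding gene, against 48.4% of all IDR summits. The median distance was 1916 bp for the 9 and 932 bp for all IDR summits. Within the body of a protein-coding gene lay 5 of the 9, all in introns of egl-18, rnt-1 or bro-1, against 40.1% of IDR summits in a gene body. An annotated non-coding RNA gene covered 2 of the 9 summits, those of rnt-1 and lin-22, against 6.36% of all IDR summits, and such genes cover 1.09% of the nuclear sequence. Annotated 5′ ends in the worm can be sites of trans-splicing, so the distances are to annotated ends and not to measured starts of transcription.

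The share of these summits with a GATA site was near that of IDR summits in general. At least 1 of the 4 forms lay within 100 bp of 5 of the 9 summits, against 65.2% of all IDR summits, and 2 or more lay at 2 of the 9, against 31.4%. There were 8 sites in all, starting 23 to 98 bp from the summit. With CGATAA and CGATAG added, 7 of the 9 summits had a site, against 76.3% of all IDR summits. CGATAA was found at 3 of the 9 summits, all of egl-18, and at 18% of all IDR summits. The bare GATA core was found at 8 of the 9 and at 90.4% of all. GAGAGA lay at 6 of the 9 summits, against 34.4% of all IDR summits, and was missing at egl-18 summit 3, ceh-16 summit 2 and bro-1. CTTTGA, the core that TCF factors such as POP-1 of the Wnt pathway recognise, lay at 1 of the 9 (ceh-16 summit 1) and at 12.6% of all. At 9 summits, shares of this size rest on a few summits each.

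**Figure D3:**
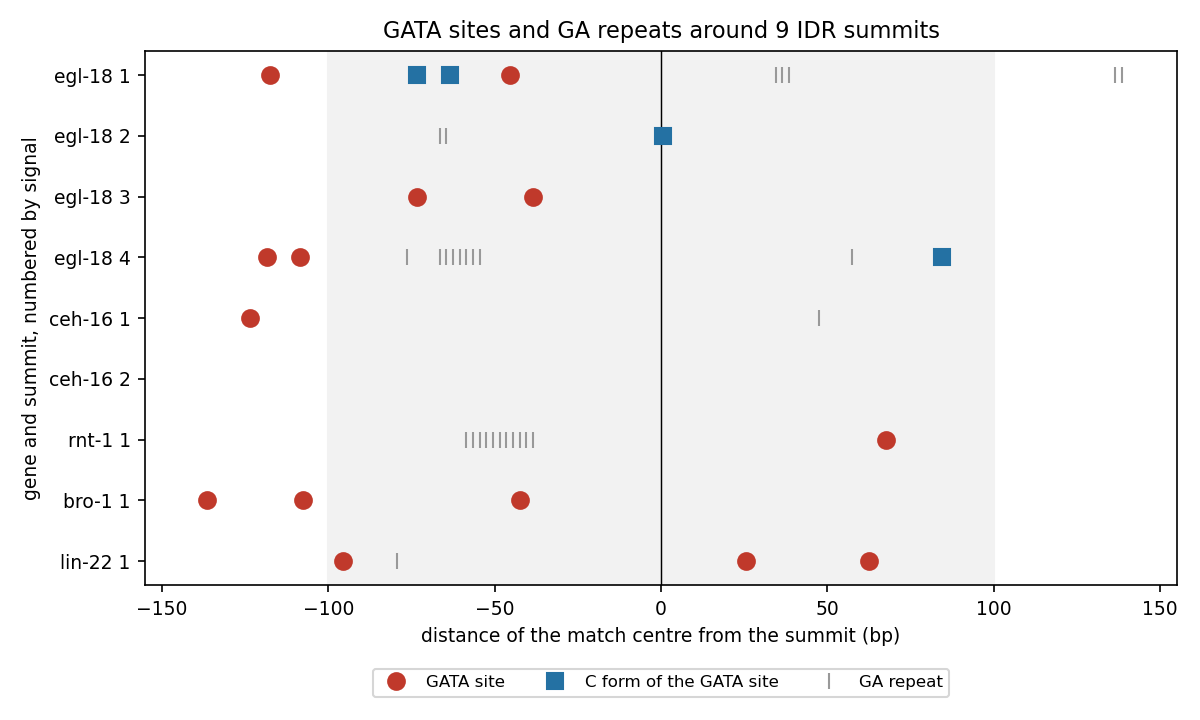
Matches around each of the 9 IDR summits (rows, numbered by signal within a gene), by distance of the match centre from the summit in bp (x axis). Red circles are GATA sites, blue squares are their C forms, grey ticks are single matches of a GA repeat, and the shaded band is the 100 bp to each side that was counted. ceh-16 has no GATA site in the band, and lin-22 has 3.

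Among genes, the strongest IDR summit within 8 kb placed egl-18 and elt-6 at rank 21 of the 3905 genes with one, through the same peak. The 3905 include mitochondrial genes, and some of these, such as COX3 (488) and ND1 (277), ranked above egl-18 and elt-6. bro-1 was at rank 519 (71.4), lin-22 at 641 (66.1), rnt-1 at 765 (62.1) and ceh-16 at 2517 (36.1). The median over those genes was 40.9, so 5 of the 6 lay above it and ceh-16 below. The values of bro-1, lin-22 and rnt-1 were close, while their order differed by replicate: lin-22 ranked highest of the 3 in replicate 1 and lowest in replicate 2. In all, 79 protein-coding genes had 4 or more IDR summits in such a window, as egl-18 did, and 241 had 3 or more.

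**Figure D4:**
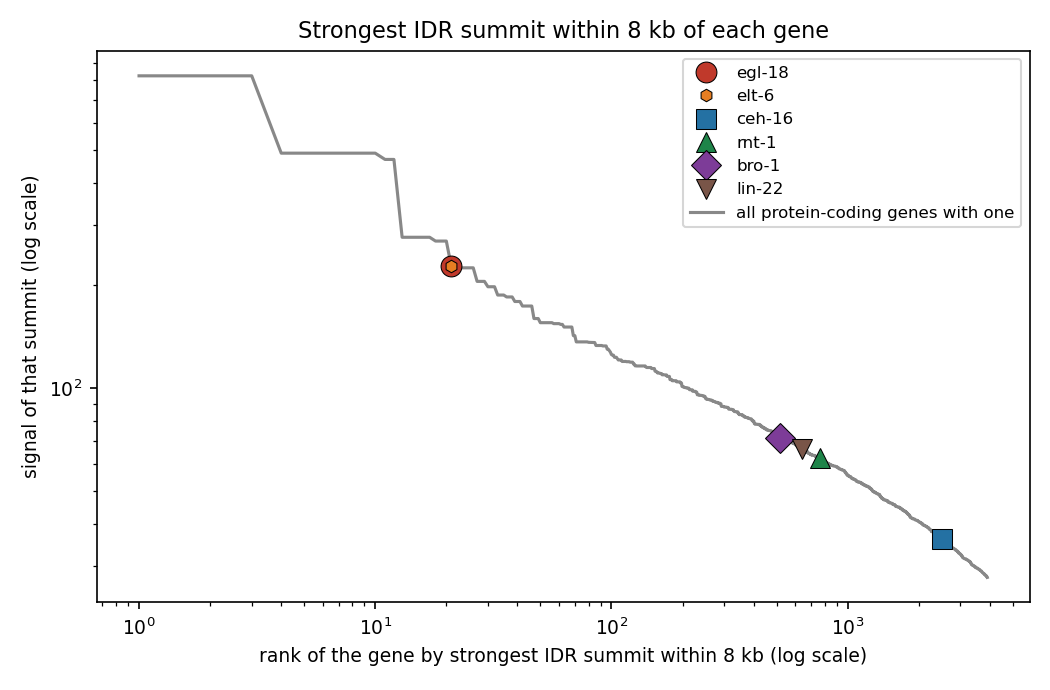
Signal of the strongest IDR summit within 8 kb (y axis, log scale) against the rank of the gene by that signal (x axis, log scale), for the 6 seam cell regulators (markers) and all 3905 protein-coding genes with such a summit (grey line). egl-18 and elt-6 share a point at 227, and ceh-16 lies lowest at 36.1.

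The IDR peaks most like the strongest egl-18 peak were found by the summed absolute difference in log2 signal over the pooled list and both replicate lists, among 1344 other IDR peaks on nuclear chromosomes that overlapped relaxed peaks of both. The closest (0.463) was an intergenic peak on chromosome V (14506752 to 14507064) with a signal of 225, whose nearest 5′ end was that of R02D5.1. It ranked 21 in replicate 1 and 7 in replicate 2. Next came an intronic peak of elt-1 itself (0.690; IV, 9618881 to 9619157), with a signal of 205. The third was in the first intron of fasn-1 (0.747), which encodes a fatty acid synthase, with a signal of 270.

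Other genes with roles in seam cells were counted in the same way. Of 21 genes of the Wnt and β-catenin asymmetry pathway, which makes the daughters of a seam division different, 6 had an IDR summit within 8 kb, against 19.5% of all genes. The highest signals were 87.7 near sys-1, a β-catenin gene, though his-68 was the nearest gene to that summit, 44.6 near the APC-related gene apr-1, 41.3 near the Axin gene pry-1, 37.2 near the β-catenin gene wrm-1 and 36.2 in the first intron of pop-1, the TCF gene. The pop-1 peak ranked 1191 in replicate 1 and 1146 in replicate 2. Of 12 heterochronic genes, which time the larval seam divisions, 6 had one. They were led by lin-41, a regulator of the larval-to-adult switch, at 187 (rank 19, with ranks 18 and 24 in replicates 1 and 2), followed by dre-1 (57.3), the Period-related gene lin-42 (45.2), blmp-1 (43.1) and the hunchback-like gene hbl-1 (30.6). The nearest 5′ end to the lin-41 peak was that of cbl-1, and those to the apr-1, wrm-1 and blmp-1 peaks belonged to other genes too.

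Of 20 genes of epidermal fate, cell fusion and division, 12 had an IDR summit within 8 kb, against 19.5% of all protein-coding genes. Besides elt-1 (823), which is the tagged gene, and nhr-25 (119), which encodes a nuclear receptor, they were led by the cell cycle genes cdk-4 (76.5), cyd-1 (70.7) and cki-1 (59.3). cyd-1 encodes cyclin D, cdk-4 its kinase partner, and cki-1 an inhibitor of such kinases. The cyd-1 summit lay in an untranslated exon of that gene, with ranks of 214 in replicate 1 and 213 in replicate 2. The cdk-4 summit lay in pab-2 and the cki-1 summit in cki-2, the neighbouring genes. In the promoter window, 8 of the 53 genes of the 3 lists had an IDR summit, against 3.61% of all protein-coding genes. The lists were chosen by hand, and nothing is inferred from their shares.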

How the data were processed

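ELT-1 ChIP-seq peaks from 2 biological replicates were used as deposited, in narrowPeak lists on build ce11: a relaxed list (peaks and background) of each replicate and of the pooled replicates, and the IDR-thresholded list of 1400 peaks derived from them, per the text lists that go with the files. The signal of each peak is the value the authors deposited, on no stated scale, and was used only within a list. All IDR peaks described here carried 1 −log10 q-value in the deposited list (3.53), which was not used. The sources used here give no aligner, peak caller or IDR threshold, and read depth is unknown. The lists on build ce10 were not used here.

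Summits are the deposited interval start plus offset, written 1-based. Genes, transcripts and 29796 distinct 5′ ends are from Ensembl release 115 (WBcel235), and sequence from RefSeq's copy of that assembly, within whose chromosome lengths all peaks ended. A replicate peak was matched to an IDR peak by an overlap of 1 bp or more, and the one with the nearest summit gave its signal and rank. An IDR peak was among the strongest of a replicate when it overlapped one of its 1400 highest relaxed peaks. Motifs were searched on both strands within 100 bp of summits. Background shares are over all 19985 protein-coding genes or all 1400 IDR peaks. No test was run, since there is 1 group. The window count and the motif search were checked on planted peaks and sites. The members and gene lists were chosen with earlier results of these data known. Up to 5 genes of each list, by signal, and up to 3 summits below IDR at each locus were named. Gene windows, thresholds, overlap rules, motif windows and single replicates were varied. Analyses used matplotlib 3.10.9, pandas 2.3.3, numpy 2.4.6 and SciPy 1.17.1 under Python 3.11.15.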

Additional observations from a re-analysis of the deposited data

How the results depend on the processing

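With 4 kb, 2 kb or the nearest 5′ end in place of 8 kb, 5, 4 and 4 of the 6 genes had an IDR summit, against 12.4%, 8.37% and 5.69% of all genes. In the promoter window there were 0 of 6 genes with 0 summits, 8 of the 53 listed genes and 3.61% of all genes. The strongest 50% of IDR peaks gave 5 of the 6 genes (all but ceh-16), 14 of the listed genes (24 with all peaks) and 10.6% of all genes. In the 1400 strongest relaxed peaks of replicate 2 alone lin-22 had no summit and the other 5 did. For ceh-16 neither IDR peak was among these, while the intronic peak below IDR, at 8624874, was (rank 318). With replicate 1 alone all 6 genes had a summit. The share of all protein-coding genes was 19.5% with replicate 2 alone and 19.7% with replicate 1 alone. The rank of the strongest egl-18 peak was 11 in replicate 2 and 15 in replicate 1. Of the 9 IDR peaks, 3 in place of 5 were strong in both replicates when at least 50% of the peak had to overlap, and 9 with all relaxed peaks. The share of all IDR peaks under the 50% rule is not given here. Only 23 of the 1400 IDR peaks had no relaxed peak in replicate 2, and 2 had none in replicate 1. The count of 9 was therefore nearly fixed in advance. Within 2 kb the 6 genes had 43 pooled relaxed summits, against 69 within 8 kb. The share of all IDR summits with a GATA site was 50.1% within 50 bp, 73.8% within 150 bp, 76.3% with the C forms and 72.0% for the strongest 50% of peaks. For the summits of the 6 genes the counts were, in that order, 4 of 9, 7 of 9, 7 of 9 and 5 of 6. Of the 51 alternatives, 34 left the value within 1.5 times, or within its interval or the spread of the replicates, among them the counts of 4 or 5 of the 6 genes and the egl-18 rank of 11 in replicate 2. The cause of these changes was not tested beyond the construction of each alternative. No paired analysis was possible because there is 1 group. Read depth is unknown, so no precision was derived from it.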

Other observations

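The window of elt-6 also held summits that belong to no IDR peak but lie closer to its start than the 3 shared with egl-18. One at 1916329, in the last intron of egl-18 and 1648 bp upstream of elt-6, had a pooled signal of 16.9. It ranked 1045 in replicate 1, inside the 1400 strongest there, and had no overlapping relaxed peak in replicate 2. At the other loci, some of the strongest summits below IDR lay near a neighbour's start: 131 bp from that of dnj-10 in the ceh-16 window (20.7), 211 bp from that of hil-5 in the rnt-1 window (14.9) and 183 bp from that of slx-1 in the bro-1 window (17.2). Of the 16 distinct summits named below IDR, 9 had a GATA site within 100 bp. The share over all relaxed summits is not given here, so nothing is read from this count.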
